A study of Rattus norvegicus with 18 samples.

Results

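The 6 rat genes described here, Ankrd37, Ak4, Abhd18, Fam162a, Asph and Atp11b, are less known members of the set whose signal was higher in low oxygen in cultured 9L cells. They were picked because their values were higher after both 6 h and 16 h of hypoxia, so they were selected on the culture values, which are given as a description with no test. The question left for a test was how the same genes differed between hypoxic and normoxic regions of 9L tumours, which use none of the culture arrays. The choice was made with earlier results of these data known, so it may not be free of the tumour values. Each gene was found by its symbol and has 1 probe set, so the 6 genes are 6 of the 14324 genes that the platform annotation pairs with a single symbol. The probe sets are 10788224 for Ankrd37, 10870261 for Ak4, 10815137 for Abhd18, 10751450 for Fam162a, 10875387 for Asph and 10814858 for Atp11b.

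The 9L line is a rat gliosarcoma that grows in rats of the Fischer strain, and RNA from its tumours and cultures was measured on 18 Affymetrix Rat Gene 1.0 ST arrays. The 6 groups hold 3 arrays each. Hypoxic tumour regions were cut by laser from areas that stain for EF5, a compound that binds in cells with little oxygen, and normoxic regions from areas of the same tumours without stain. The tumours were transplanted as pieces onto the epigastric vessels of male rats, which the labels give as 6 weeks old, and they keep the blood vessels and immune cells of a host that has its own immune system. Hypoxic cultures were held at 0.2% oxygen for 6 h or 16 h, against normoxic cultures at about 20% oxygen for the same time. All groups derive from the same cell line, with no transgene or deletion named in the labels. The labels do not say whether cultures of one group were separate experiments, so p-values among cultures measure only the spread between these samples.

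Cells short of oxygen stop degrading the alpha subunits of the hypoxia-inducible factors (HIF), because the prolyl hydroxylases that mark them need oxygen. The stabilised factor binds the short core ACGTG or GCGTG beside genes of glucose use, vessel growth, mitochondrial turnover and pH control. Among the genes described here, ANKRD37 and FAM162A are known HIF targets in human cells. ANKRD37 is a small protein made largely of ankyrin repeats. AK4 is an adenylate kinase of the mitochondrial matrix, FAM162A is a mitochondrial protein linked to cell death in human cells, and ABHD18 belongs to the alpha/beta hydrolase fold family and is little described. ASPH hydroxylates aspartate and asparagine in EGF-like domains inside the endoplasmic reticulum, and its locus also encodes junctin and junctate, which lack the catalytic domain. Which of these transcripts the Asph probe set reads is not stated in the annotation used here. ATP11B is a P4-ATPase, a pump that moves phosphatidylserine to the cytosolic face of a membrane together with a CDC50 partner.

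The start regions of 4 of these genes are shown to set the HIF cores beside the results: Ankrd37, Fam162a and Ak4, whose signal was higher in the hypoxic region of every tumour, and Atp11b, whose signal was not. The sequences are from RefSeq, build GRCr8, on the plus strand, each from 250 bases before to 50 bases after the annotated start, and the capitals mark ACGTG or GCGTG on either strand, so that CACGT and CACGC are the same cores read on the minus strand. They lie at chr16:53001257-53001556 for Ankrd37, chr11:78186051-78186350 for Fam162a, chr5:121154886-121155185 for Ak4 and chr2:120513325-120513624 for Atp11b.
Ankrd37: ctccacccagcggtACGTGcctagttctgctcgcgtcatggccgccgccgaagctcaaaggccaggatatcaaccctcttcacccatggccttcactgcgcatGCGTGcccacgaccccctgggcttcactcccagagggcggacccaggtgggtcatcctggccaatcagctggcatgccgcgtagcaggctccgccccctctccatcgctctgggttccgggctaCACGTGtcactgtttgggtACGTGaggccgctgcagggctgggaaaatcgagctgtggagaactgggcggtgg
Fam162a: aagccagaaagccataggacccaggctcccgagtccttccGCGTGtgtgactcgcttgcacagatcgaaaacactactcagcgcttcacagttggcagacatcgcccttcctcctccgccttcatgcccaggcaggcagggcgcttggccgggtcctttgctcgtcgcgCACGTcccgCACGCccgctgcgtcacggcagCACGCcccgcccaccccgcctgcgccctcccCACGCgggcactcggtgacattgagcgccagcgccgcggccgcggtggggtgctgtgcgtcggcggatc
Ak4: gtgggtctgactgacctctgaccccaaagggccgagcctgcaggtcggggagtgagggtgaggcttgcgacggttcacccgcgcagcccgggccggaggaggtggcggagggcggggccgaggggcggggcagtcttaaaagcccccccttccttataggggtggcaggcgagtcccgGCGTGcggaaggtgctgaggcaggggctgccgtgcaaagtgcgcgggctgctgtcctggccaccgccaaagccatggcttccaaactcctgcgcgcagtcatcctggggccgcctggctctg
Atp11b: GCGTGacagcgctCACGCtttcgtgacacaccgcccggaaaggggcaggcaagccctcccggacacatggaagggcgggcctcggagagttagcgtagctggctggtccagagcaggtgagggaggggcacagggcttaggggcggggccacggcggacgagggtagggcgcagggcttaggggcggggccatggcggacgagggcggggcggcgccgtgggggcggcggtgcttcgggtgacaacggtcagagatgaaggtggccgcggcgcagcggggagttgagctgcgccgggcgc
Ankrd37 holds 4 matches to ACGTG and 1 to GCGTG, and 2 of the ACGTG matches are one CACGTG palindrome read on each strand, at positions -23 and -22 from the start. Fam162a holds 1 ACGTG at -81 and 4 GCGTG. Ak4 holds no ACGTG and 1 GCGTG at -72, and Atp11b holds 2 GCGTG at -250 and -237, the far end of its window. The window of Abhd18, chr2:125800238-125800537, holds no ACGTG and 2 GCGTG, at -144 and -13. Of the 12364 windows of the same length for genes measured here, 22.1% hold ACGTG, 0.898% hold 4 or more matches to it, 40.5% hold GCGTG and 52.0% hold either. Of the 5 genes with a window, 2 hold ACGTG and 5 hold either core. Of 26 windows of the other genes called higher at both culture times, 14 (53.8%) hold ACGTG. The windows of the 5 genes described here are 64.7% to 72.7% G and C, against a median of 58.0% over the 12364. A match describes letters and is not a bound site.

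One of the 18 arrays stood apart. The normoxic region of tumour 3 correlated over all probe sets at 0.941 with the mean of the normoxic cultures, where the other tumour arrays had 0.865 to 0.892, and its log2 signals had an SD of 1.92, where the others had 1.76 to 1.79. Array medians were 6.36 to 6.5 in tumours and 6.02 to 6.19 in cultures.

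All values below are log2 signals as deposited, where a difference of 1 is a doubling, and a level of one probe set is not set against another. Tumour differences were tested with limma, with the tumour as a block and p-values adjusted by Benjamini-Hochberg over all 27363 probe sets, and a gene was called at an adjusted p of 0.05. In the tumours 0 of the 6 genes were called. That is the background too, since 0% of probe sets were called higher in hypoxic regions, and the smallest adjusted p of any probe set was 0.106. At an unadjusted p of 0.05, 3 of the 6 were higher (Ankrd37, Ak4 and Fam162a), against 3.42% of probe sets. Without tumour 1 this was 1 of the 6 (Ankrd37), against 755 of the 27363 probe sets. That fit had a median of 32.5 degrees of freedom, against 6.21 with all 3 tumours. Its p-values therefore rest mostly on the spread that limma shares over probe sets. Ankrd37, Ak4 and Fam162a were higher in the hypoxic region of all 3 tumours, as were 22.9% of probe sets. Their hypoxic arrays lay above all normoxic arrays, as for 11.8% of probe sets. Asph and Atp11b differed little between regions, and Abhd18 differed in direction between tumours. The median tumour difference of the 6 genes was 0.57, against 0.10 over all probe sets.

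**Figure D1:**
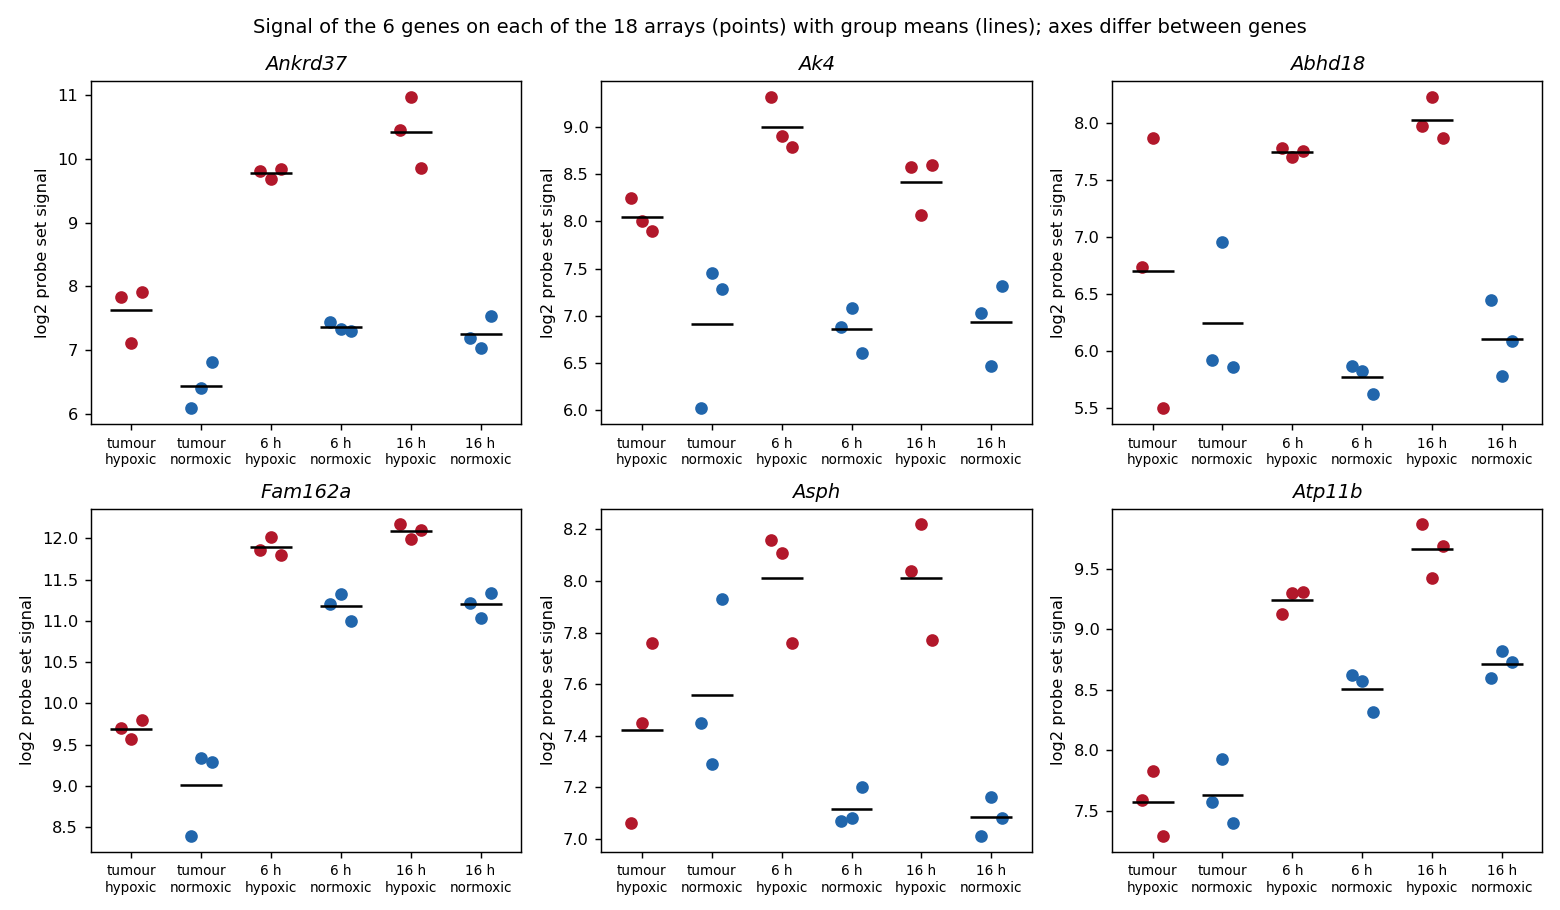
Log2 probe set signal of the 6 genes (vertical axes, scaled per gene) on each of the 18 arrays, by group, with points for arrays and lines for group means. In culture the hypoxic arrays lie above the normoxic arrays for each gene, and in the tumours this is so for Ankrd37, Ak4 and Fam162a.

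The Ankrd37 signal was 7.84, 7.11 and 7.92 in hypoxic regions of tumours 1, 2 and 3, against 6.09, 6.41 and 6.81 in normoxic regions of the same tumours. The groups did not overlap, and the lowest hypoxic region was that of tumour 2. The fitted difference was 1.19 ± 0.25 (SE), or 2.28-fold, with an unadjusted limma p of 0.00282 and an adjusted p of 0.268. It was 1.76, 0.70 and 1.11 within tumours 1, 2 and 3. Without tumour 1 it was 0.91, and without tumour 3, which holds the array that stood apart, it was 1.23.

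In culture Ankrd37 had 9.81, 9.68 and 9.84 after 6 h of hypoxia (cultures 6, 13 and 26), against 7.45, 7.33 and 7.30 in normoxia. After 16 h it had 10.44, 10.97 and 9.85 in hypoxia (cultures 22, 28 and 29), against 7.19, 7.04 and 7.54 in normoxia. The hypoxic cultures stood apart from the normoxic cultures at both times, and culture 29 was the lowest of the hypoxic cultures at 16 h. The differences were 2.42 ± 0.21 at 6 h and 3.16 ± 0.21 at 16 h (SE), or 5.34-fold and 8.92-fold. The mean over both times, 2.79, was the largest of the 6 genes.

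For Ak4, the mitochondrial matrix kinase, the signal was 8.25, 8.0 and 7.90 in hypoxic regions of tumours 1, 2 and 3, against 6.02, 7.45 and 7.28 in normoxic regions. The hypoxic regions were close together and the normoxic region of tumour 1 was far below the other two. The difference was 1.13 ± 0.36, or 2.19-fold, with an unadjusted limma p of 0.0189 and an adjusted p of 0.437. Within tumours 1, 2 and 3 it was 2.23, 0.55 and 0.62, and without tumour 1 the fitted value was 0.58, with an unadjusted limma p of 0.0868, so the size rests on tumour 1.

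In culture Ak4 had 9.32, 8.90 and 8.79 after 6 h of hypoxia, against 6.88, 7.08 and 6.61 in normoxia. After 16 h it had 8.58, 8.07 and 8.60 in hypoxia, against 7.03, 6.47 and 7.32 in normoxia. The groups stood apart at both times, and every hypoxic culture at 6 h was above every hypoxic culture at 16 h. The differences were 2.15 ± 0.22 at 6 h (4.44-fold) and 1.48 ± 0.22 at 16 h (2.78-fold). As 16 h minus 6 h, the difference of Ak4 was smaller at the later time, by -0.67, where Ankrd37 had 0.74 and the others lay between -0.05 and 0.20. These time differences use the values that chose the genes and were not tested.

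Fam162a, the other mitochondrial gene, had 9.70, 9.57 and 9.80 in hypoxic regions of tumours 1, 2 and 3, against 8.39, 9.34 and 9.29 in normoxic regions. As for Ak4, the normoxic region of tumour 1 was the lowest array by far. The difference was 0.68 ± 0.26, or 1.60-fold, with an unadjusted limma p of 0.0361 and an adjusted p of 0.512. It was 1.31, 0.23 and 0.50 within tumours 1, 2 and 3, and 0.37 without tumour 1 (unadjusted limma p 0.276), so its size too rests on that tumour. The unadjusted p was also above 0.05 without tumour 3 (0.0682), with median centring (0.0546) and with a trended and robust variance (0.0516).

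In culture Fam162a had 11.86, 12.02 and 11.80 after 6 h of hypoxia, against 11.20, 11.33 and 11.00 in normoxia. After 16 h it had 12.17, 11.99 and 12.10 in hypoxia, against 11.22, 11.04 and 11.34 in normoxia. The steps were small and even, from 0.66 to 0.95 over the 6 same-numbered pairs of cultures. The differences were 0.72 ± 0.12 at 6 h (1.64-fold) and 0.88 ± 0.12 at 16 h (1.85-fold). Fam162a was the gene of the 6 whose tumour difference, 0.68, was nearest to its mean culture difference, 0.80.

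Abhd18 had 6.74, 7.87 and 5.50 in hypoxic regions of tumours 1, 2 and 3, against 5.92, 6.96 and 5.86 in normoxic regions. The groups overlapped, and both regions of tumour 2 were higher than those of the other tumours. Within tumours 1, 2 and 3 the difference was 0.81, 0.92 and -0.37, so that tumour 3 had the opposite sign. The fitted difference was 0.46 ± 0.29, or 1.37-fold, with an adjusted limma p of 0.663. Without tumour 3 it was 0.87, with an unadjusted limma p of 0.0104 and an adjusted p of 0.504.

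In culture Abhd18 had 7.78, 7.70 and 7.75 after 6 h of hypoxia, against 5.87, 5.83 and 5.63 in normoxia. After 16 h it had 7.97, 8.23 and 7.87 in hypoxia, against 6.45, 5.78 and 6.09 in normoxia. The 6 h cultures differed little within each group, and the groups stood apart at both times. The differences were 1.96 ± 0.15 at 6 h (3.90-fold) and 1.92 ± 0.15 at 16 h (3.77-fold), nearly equal. The mean over both times, 1.94, was the next largest of the 6 after Ankrd37.

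Asph had 7.06, 7.45 and 7.76 in hypoxic regions of tumours 1, 2 and 3, against 7.45, 7.29 and 7.93 in normoxic regions. The groups overlapped throughout. The difference was -0.13 ± 0.20, or 0.913-fold, with an adjusted limma p of 0.820, and it was -0.39, 0.16 and -0.17 within tumours 1, 2 and 3. In culture Asph had 8.16, 8.11 and 7.76 after 6 h of hypoxia, against 7.07, 7.08 and 7.20 in normoxia. After 16 h it had 8.04, 8.22 and 7.77 in hypoxia, against 7.01, 7.16 and 7.08 in normoxia. Hypoxic cultures 26 and 29 were the lowest of their groups, still above every normoxic culture. The differences were 0.89 ± 0.13 at 6 h (1.85-fold) and 0.93 ± 0.13 at 16 h (1.90-fold).

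Atp11b had 7.59, 7.83 and 7.29 in hypoxic regions of tumours 1, 2 and 3, against 7.57, 7.93 and 7.40 in normoxic regions. Each pair of regions of a tumour was nearly equal, while the tumours differed from each other. The difference was -0.06 ± 0.18, or 0.957-fold, with an adjusted limma p of 0.906, and the 3 tumours gave 0.02, -0.10 and -0.11. Its sign turned to 0.03 after cyclic loess normalization. In culture Atp11b had 9.13, 9.30 and 9.31 after 6 h of hypoxia, against 8.62, 8.57 and 8.32 in normoxia. After 16 h it had 9.87, 9.43 and 9.69 in hypoxia, against 8.60, 8.82 and 8.73 in normoxia. The groups stood apart at both times. The differences were 0.75 ± 0.13 at 6 h (1.68-fold) and 0.95 ± 0.13 at 16 h (1.93-fold).

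**Figure D2:**
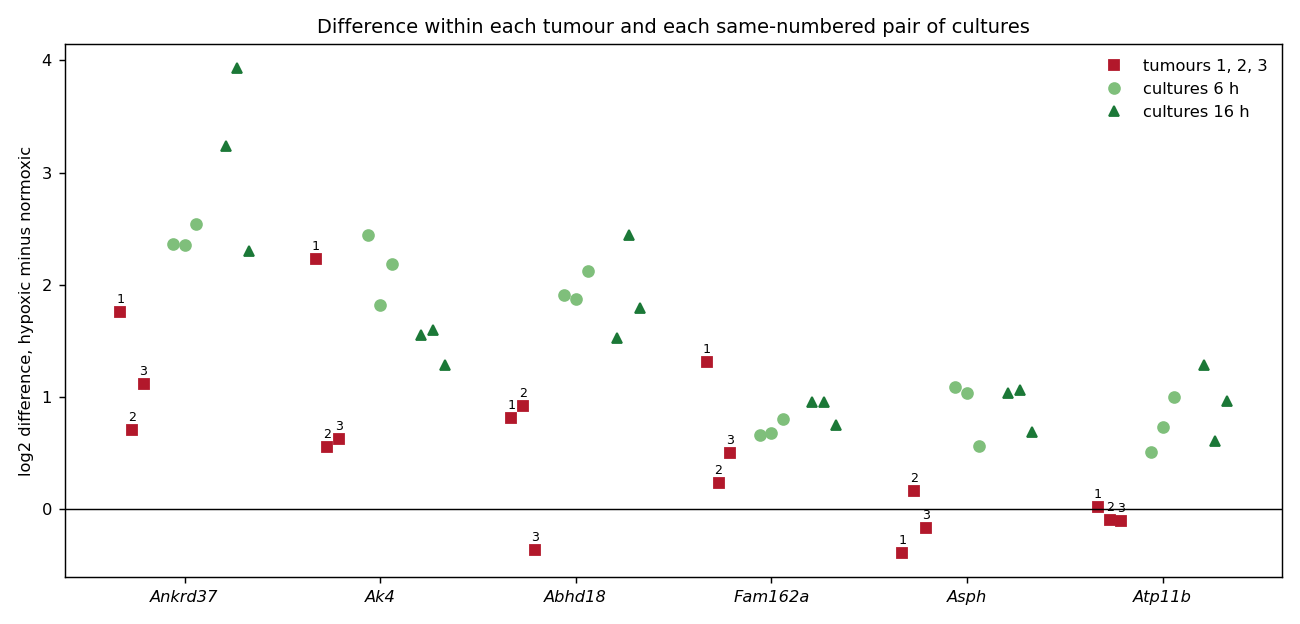
Log2 difference, hypoxic minus normoxic, of the 6 genes within each tumour (squares, numbered by tumour) and within each same-numbered pair of cultures at 6 h (circles) and 16 h (triangles). Squares of Asph and Atp11b lie near 0 (-0.39 to 0.16 and -0.11 to 0.02) and all culture points lie above it.

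Set side by side, the tumour difference lay below the mean culture difference for each of the 6 genes, by -1.60 for Ankrd37, -1.48 for Abhd18, -1.04 for Asph, -0.91 for Atp11b, -0.68 for Ak4 and -0.12 for Fam162a. This gap was not tested, because genes picked for large culture values carry those values into it. The 95% interval of the tumour difference, which does not use the cultures, was -0.62 to 0.35 for Asph and -0.50 to 0.37 for Atp11b. It was -0.26 to 1.17 for Abhd18, 0.58 to 1.79 for Ankrd37, 0.26 to 2.01 for Ak4 and 0.06 to 1.30 for Fam162a. The culture pairs that belong to the selection ran from 0.56 to 1.09 for Asph, 0.51 to 1.28 for Atp11b, 1.52 to 2.44 for Abhd18, 2.30 to 3.93 for Ankrd37, 1.28 to 2.44 for Ak4 and 0.66 to 0.95 for Fam162a, and are given beside the intervals with no comparison.

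Among tumours the differences of these genes were largest in tumour 1, with a median over the 6 genes of 1.06, 0.39 and 0.20 in tumours 1, 2 and 3. Over all probe sets the medians were 0.08, -0.0019 and 0.21. Tumour 1 gave the largest value for Ankrd37, Ak4, Fam162a and Atp11b at 0.02, and tumour 2 gave it for Abhd18 and Asph. Without tumour 3, which holds the array that stood apart, the differences were 1.23 for Ankrd37, 1.39 for Ak4, 0.77 for Fam162a, 0.87 for Abhd18, -0.11 for Asph and -0.04 for Atp11b.

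**Figure D3:**
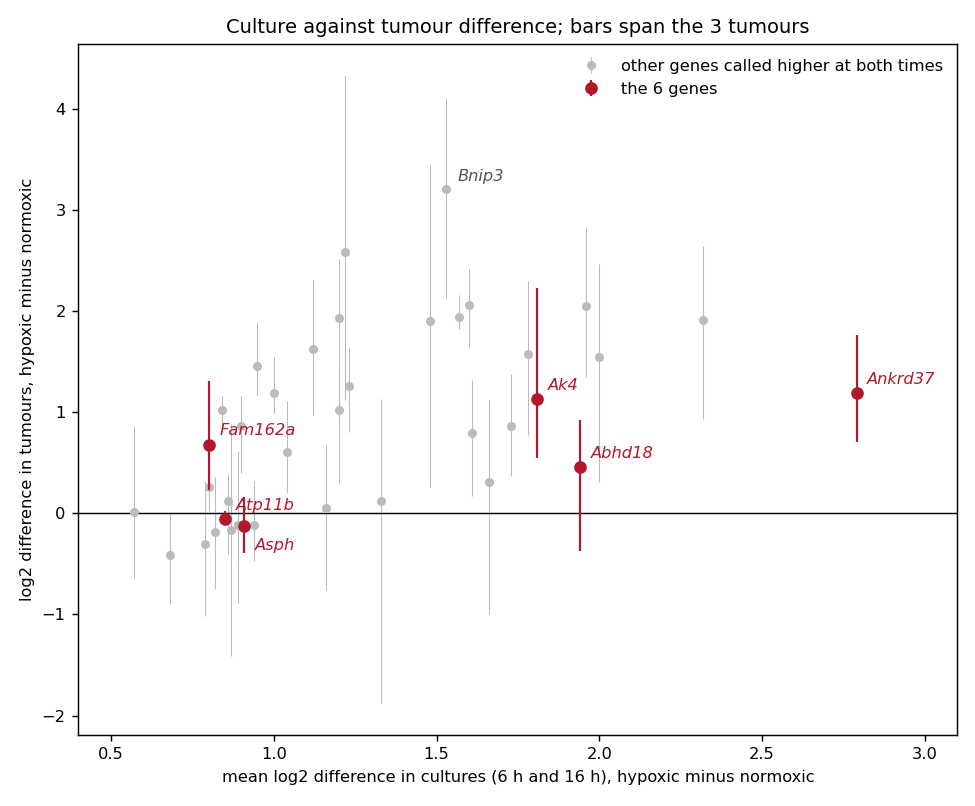
Tumour difference (vertical) against mean culture difference (horizontal), both as log2 hypoxic minus normoxic, for the 6 genes (red) and 33 others that limma called higher at both culture times (grey); points are fitted values and bars span the 3 tumours. Ankrd37 is the farthest right at 2.79 with a tumour difference of 1.19, and Bnip3 is the highest at 3.21.

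Beside the 6 genes, limma called 33 other genes higher at both culture times. Over all probe sets, 0.183% were called higher and 0.00731% lower at 6 h, and 0.603% and 0.102% at 16 h. Nothing is read from these shares for the 6 genes, which were picked on the same arrays. The rule that picked the 6 genes uses no tumour values, but they were chosen with earlier results of these data known. Their tumour values are thus not shown to be free of the choice. In the tumours 3 of the 6 genes were higher in all 3 tumours and 3 had no overlap between regions, against 21 and 16 of the 33 others. The median tumour difference was 0.57 for the 6 genes and 0.86 for the 33 others, whose range was -0.41 (Syt17) to 3.21 (Bnip3). Among the 33 the smallest mean culture difference was that of Map2k1 at 0.57, and Plod1 was just outside, with a 6 h difference of 0.69 and an adjusted limma p of 0.0527. As a scale, the 4 widely known hypoxia genes set beside them had larger tumour differences than Ankrd37, and none was called. Bnip3 differed by 3.21 ± 0.37, Car9 by 1.94 ± 0.19, Slc2a1 by 1.90 ± 0.55 and Vegfa by 1.75 ± 0.22, with adjusted limma p-values of 0.145, 0.141, 0.403 and 0.145.

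The levels of a gene can also be ordered over the 6 groups. Ankrd37 was highest in hypoxic cultures at 16 h (10.42 ± 0.56, SD, n = 3) and then at 6 h (9.78 ± 0.09). Hypoxic tumour regions (7.62 ± 0.45) overlapped both normoxic culture groups (7.36 ± 0.08 at 6 h and 7.26 ± 0.26 at 16 h), and normoxic tumour regions were lowest (6.44 ± 0.36). For Ak4 the order was hypoxic cultures at 6 h (9.01 ± 0.28), hypoxic cultures at 16 h (8.42 ± 0.30) and hypoxic tumour regions (8.05 ± 0.18), the last 2 overlapping. The 3 normoxic groups of Ak4 overlapped, with means of 6.92 in tumour regions, 6.86 in 6 h cultures and 6.94 in 16 h cultures.

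For Abhd18 the hypoxic cultures at 16 h (8.02 ± 0.18) and 6 h (7.74 ± 0.04) led, and each later group overlapped its neighbour in the order, down to normoxic cultures at 6 h (5.78 ± 0.13). The hypoxic tumour regions of Abhd18 had the widest spread of any group of the 6 genes (6.70 ± 1.19). For Asph the hypoxic cultures were highest (8.01 ± 0.23 at 16 h and 8.01 ± 0.22 at 6 h), and normoxic cultures were lowest (7.12 ± 0.07 at 6 h and 7.08 ± 0.07 at 16 h). Tumour regions lay between in their means, with hypoxic regions (7.42 ± 0.35) overlapping normoxic regions (7.56 ± 0.33) and the normoxic cultures at 6 h and 16 h. The normoxic regions also overlapped the hypoxic cultures at 6 h and 16 h. Each normoxic region was above every normoxic culture, and the mean difference between them was 0.45.

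Fam162a and Atp11b were instead lower in all tumour arrays than in all culture arrays. Fam162a had 9.69 ± 0.11 in hypoxic and 9.01 ± 0.54 in normoxic tumour regions, against 11.18 ± 0.17 or more in the culture groups. Atp11b had 7.57 ± 0.27 in hypoxic and 7.63 ± 0.27 in normoxic regions, against 8.50 ± 0.16 or more. Between normoxic groups, tumour minus culture was -2.18 for Fam162a, -0.98 for Atp11b, -0.88 for Ankrd37, 0.02 for Ak4, 0.30 for Abhd18 and 0.45 for Asph. Over all probe sets the median of this difference was 0.24, and over the brightest 25% of probe sets, which hold Ankrd37, Ak4, Fam162a and Atp11b, it was -0.62. Tumour regions contain other cells than 9L cells, and fewer 9L cells cannot be told apart from less RNA per cell in any tumour value here.

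T and NK cell markers were separated between the tumour regions in their mean, although none passed the adjusted test. The mean signal of 5 T and NK cell markers was 5.79 to 6.06 in hypoxic regions, against 6.61 to 8.46 in normoxic regions. At an unadjusted limma p of 0.05, 4 of the 5 were lower, against 1559 of 27363 probe sets, with 0 called after adjustment. In cultures the same markers had array means of 4.66 to 4.99. The 5 macrophage markers had 6.70 to 7.47 in hypoxic and 7.08 to 7.90 in normoxic regions, against 5.15 to 5.40 in cultures. The ranges of the regions overlapped, and 1 of the 5 was lower at an unadjusted limma p of 0.05. It was Ptprc (-1.55), a gene not limited to macrophages. Cd68, Csf1r, Aif1 and Cd163 differed by 0.13, -0.28, -0.40 and 0.11, with unadjusted p-values above 0.05. The 4 neutrophil markers had 5.05 to 6.04 in hypoxic and 4.84 to 5.11 in normoxic regions. Endothelial (5.62 to 6.04 hypoxic, 5.71 to 6.01 normoxic), pericyte (6.80 to 6.95 and 6.67 to 6.98) and skeletal muscle markers (6.71 to 6.85 and 6.69 to 6.81) had overlapping ranges. The part of these cells in the differences of the 6 genes was not tested. Of the glial markers, Vim was bright in both regions (12.32 hypoxic, 12.05 normoxic), while Gfap had 5.48 in hypoxic and 5.53 in normoxic regions and 5.0 to 5.12 in cultures, S100b 5.31 and 5.14 in the regions, and Nes 7.45 and 7.48. Sox2, the gene of a neural stem cell factor, had 8.03 in hypoxic and 7.40 in normoxic regions, with differences of 0.65, 0.70 and 0.52 in tumours 1, 2 and 3 (unadjusted limma p 0.0128, adjusted p 0.402). The deposited values carry no detection call, so a low value is not a statement of absence.

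Genes of the same families were compared with the 6, from lists of relatives and partners. Of 97 listed genes 74 were measured. Limma called 0 of them in the tumours, 5 higher and 0 lower at 6 h, and 7 higher and 0 lower at 16 h. Over all probe sets 0.183% were called higher at 6 h and 0.603% at 16 h. The lists were chosen with earlier results of these data known, so nothing is read from these counts or from which list held them. The median over the 74 was 0.01, 0.02 and -0.03 in tumour, 6 h and 16 h. For Ak4, 6 of 10 other adenylate and nucleoside monophosphate kinases were measured, with 0 called in any comparison. Ak8 and Cmpk1 had the smallest p-values among them, with 0.38 ± 0.21 in tumours for Ak8 and -0.15 ± 0.13 at 6 h for Cmpk1. For Abhd18, 18 of 20 alpha/beta hydrolase domain genes were measured, again with 0 called, and their median was 0.01 in tumours, 0.0015 at 6 h and -0.0080 at 16 h. The smallest p-values were those of Abhd11 at 16 h (-0.49 ± 0.19, adjusted limma p 0.442) and Abhd4 in tumours (-0.56 ± 0.26, adjusted p 0.589). For Ankrd37, 13 of 18 short ankyrin repeat genes were measured and 0 called, with Ankrd13a in tumours at -0.55 ± 0.20 (adjusted limma p 0.498) and Ankrd16 at 6 h at 0.31 ± 0.16 (adjusted p 0.984).

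For Atp11b, 8 of 17 other flippases and CDC50 partners were measured and 0 were called. Atp11a, a flippase of the same subfamily, differed in the tumours by -1.17 ± 0.26, with means of 6.62 in hypoxic and 7.79 in normoxic regions, an unadjusted limma p of 0.00364 and an adjusted p of 0.285. In culture its differences were 0.25 at 6 h and -0.11 at 16 h. Tmem30a, the CDC50 partner of many flippases, differed by 0.52 ± 0.44 in tumours and by 0.21 ± 0.09 at 16 h, with adjusted limma p-values of 0.705 and 0.543.

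For Asph, 14 of 15 other hydroxylases that use 2-oxoglutarate and oxygen were measured, and this list held most of the called relatives. Egln3, a prolyl hydroxylase that acts on HIF, rose by 1.23 at 6 h and 1.44 at 16 h (adjusted limma p 0.00139 and 0.000225). The collagen prolyl hydroxylase subunits P4ha1 and P4ha2 rose by 0.83 and 1.02 at 6 h (adjusted p 0.0206 and 0.0243) and by 0.85 and 1.38 at 16 h (adjusted p 0.00728 and 0.00115). With the culture number as a block, P4ha2 at 6 h had an adjusted limma p of 0.0594, and its call was also lost when any of 5 of the 6 cultures was left out (adjusted p 0.0784 to 0.148). The call of P4ha1 at 6 h was lost when any of 4 cultures was left out (adjusted p 0.107 to 0.117), and at 16 h without normoxic culture 22 (0.0552). The collagen lysyl hydroxylases Plod1 and Plod2 rose by 0.99 and 1.15 at 16 h (adjusted p 0.0017 and 0.0051). In the tumours, where Asph had -0.13, P4ha1 differed by 1.02 ± 0.19 and Plod2 by 1.32 ± 0.23 (adjusted limma p 0.232 and 0.219), and Egln3 by 0.12 ± 0.60. Of 7 genes that work with junctin in the sarcoplasmic reticulum, 6 were measured and 0 called, with Trdn at -0.17 ± 0.09 at 16 h and Casq2 at 0.22 ± 0.13 at 6 h.

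For Fam162a, 9 of 10 other mitochondrial death and mitophagy genes were measured. Bnip3, a mitophagy receptor, rose by 1.64 at 6 h and 1.42 at 16 h (adjusted limma p 2.2e-05 and 2.4e-05), and Bnip3l, its close relative, by 1.04 and 0.75 (adjusted p 0.000167 and 0.00175). In tumours Bnip3 differed by 3.21 and Bnip3l by -0.12, with Fam162a between them at 0.68.

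The nearest measured gene on each side of the 6 genes, by RefSeq order, was compared as well. Unmeasured genes lie between in 6 cases, 9 for Sox2, 6 for Jak1, 4 for Gdf6, 2 for Clvs1 and 1 each for Mfsd8 and Dcun1d1, so not all are adjacent. Limma called 0 of the 12 in the tumours, at 6 h or at 16 h. Among them Ufsp2, which follows Ankrd37, differed by 0.68 ± 0.20 in tumours and by 0.46 ± 0.10 at 16 h (adjusted limma p 0.402 and 0.0698), against 1.19 and 3.16 for Ankrd37. The culture value of Ankrd37 was part of its selection, so nothing is read from that gap at 16 h. Lrp2bp, on the other side, differed by -0.08 in tumours, 0.83 ± 0.38 at 6 h and 0.49 at 16 h. Mix23 beside Fam162a differed by 0.44 ± 0.19 in tumours and 0.54 ± 0.12 at 16 h (adjusted limma p 0.564 and 0.0697). Fundc2b beside Abhd18 differed by 0.37 in tumours and 0.54 at 16 h, and Mfsd8 on its other side by -0.63 and 0.20. The neighbours of Ak4 (Jak1 and Dnajc6) and of Asph (Clvs1 and Gdf6) lay between -0.32 and 0.27 in each comparison. On the sides of Atp11b, Dcun1d1 differed by -0.98 ± 0.32 in tumours (adjusted limma p 0.450) and by -0.12 and -0.10 in culture, and Sox2 by 0.62 in tumours and -0.04 and 0.03 in culture. In the GRCr8 annotation the spans of Lrp2bp, Fundc2b, Mix23 and Clvs1 overlap those of Ankrd37, Abhd18, Fam162a and Asph, and whether their probe sets read shared transcripts was not tested.

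**Figure D4:**
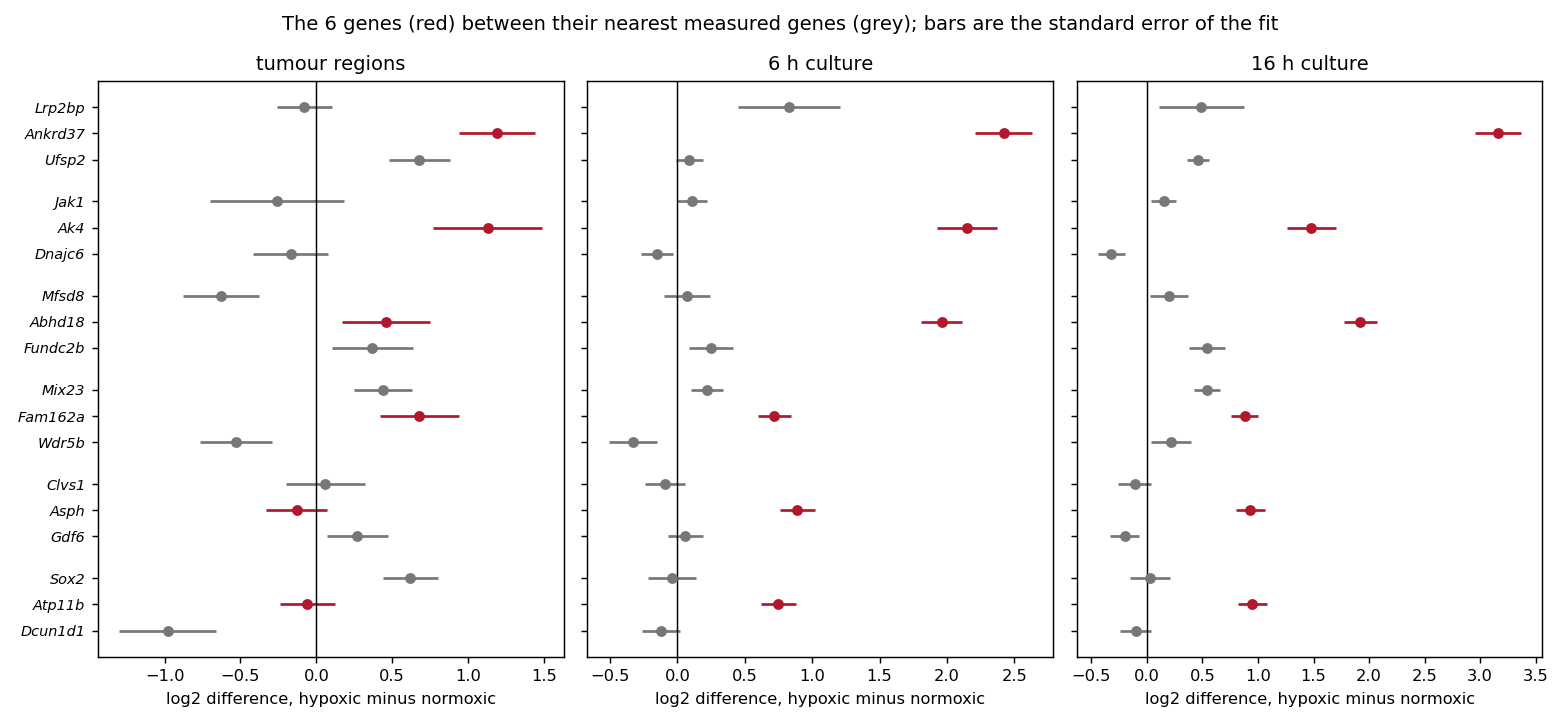
Log2 difference, hypoxic minus normoxic, with the standard error of the fit, for the 6 genes (red) and the nearest measured gene on each side (grey), in tumour regions, 6 h cultures and 16 h cultures. In culture each of the 6 genes lies to the right of both its neighbours, and in tumours Asph (-0.13) lies to the left of both its neighbours. The 6 genes were picked for high culture values and their neighbours were not, so nothing is read from the order in culture.

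The pattern of each gene was compared with that of the 14323 other genes over the 18 arrays, after each value was centred on its own tumour or its own culture time. Pearson's r is given as a description, because the genes share arrays and the same hypoxic contrast. The genes were picked for higher values in hypoxic culture, and 12 of the 18 arrays are cultures. A high r with other genes raised in culture is therefore built into the choice, and nothing is read from its size. Ankrd37 was most like Gbe1 (0.985), Pdk1 (0.966) and Plekha3 (0.949), where the 99th percentile over all genes was 0.730. Ak4 was most like Pdk1 (0.969), Fam162a (0.947) and Trpt1 (0.931). Abhd18 was most like Ankrd37 (0.945), Pdk1 (0.940) and Loxl2 (0.906).

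Pdk1, the kinase that shuts pyruvate dehydrogenase, was listed for 3 of the 6 genes and was itself called higher at both culture times. It differed by 0.86 in tumours, 1.76 at 6 h and 1.70 at 16 h. Fam162a was most like Pi4ka (0.966) and the glycolytic genes Tpi1 (0.955) and Gpi (0.952), and Gpi differed by 1.26, 1.03 and 1.44 in the same order. Asph was most like Abhd18 (0.889), Ddit4 (0.881) and Tmem106a (0.873), all with larger differences in culture than in tumours. Tmem106a had -0.12 in tumours against 0.97 and 0.92 in culture, close to the values of Asph. Atp11b was most like Rnd1 (0.919), Tbc1d8b (0.901) and Pfkp (0.896), and Tbc1d8b had 0.12 in tumours and 0.75 and 0.96 in culture, at both times within 0.01 of Atp11b. Among the 6 genes, which were picked on the same culture contrast, r lay between 0.641 (Fam162a with Asph) and 0.947 (Ak4 with Fam162a).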

How the data were processed

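The 18 arrays were deposited as log2 values, and the submitters' processing notes name robust multi-array averaging (RMA) and Partek 6.5b for the authors' steps. The values run from 2.16 to 13.8 and give no detection call or depth, so the number of arrays limits the precision. Of 27363 probe sets, 15097 have 1 gene symbol in the platform annotation, 323 have several and 11943 are unlisted and unnamed here. For genes with several probe sets the one with the highest mean was used. Of the named probe sets 15067 matched RefSeq by Entrez ID, with 0 symbols changed.

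The tumour comparison was fitted on 6 arrays with a fixed term for each tumour, and the culture comparisons the 12 culture arrays in 4 groups, both with limma 3.58.1 (R 4.3.3) and Benjamini-Hochberg adjustment over all probe sets, two-sided, after a check on simulated data. Both regions of a number come from the same tumour, by title. Deviations of same-numbered 16 h cultures correlated weakly (0.130 to 0.307), and their highest correlations with another number were negative (-0.0952 to -0.0246). For 6 h cultures the range was 0.125 to 0.193, and culture 13 (0.193) was barely above its highest with another number (0.177). By the same measure tumour 3 was above (0.273 against -0.156), but tumour 1 (0.128 against 0.167) and tumour 2 (0.0357 against 0.0512) were below. These values do not establish the pairing of cultures, and a block for it was an alternative. Alternatives were other normalizations (median centring, quantile, cyclic loess), a filter on dim probe sets, the variance model, blocks, all 18 arrays in one fit, and each tumour or culture left out.

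The 6 genes, the family lists and the markers were chosen with earlier results of these data known. Named were the 6 genes, for each the 3 genes of most similar pattern and the nearest measured gene on each side, family genes past the threshold or the 2 of smallest p, and known hypoxia genes as a scale. Promoter windows came from RefSeq for 5 of the 6 genes (not Asph).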

Additional observations from a re-analysis of the deposited data

How the results depend on the processing

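In the tumours 0 of the 6 genes were called by limma, and the same count came from 9 of 10 alternatives, including no replicate block. With all 18 arrays in one fit with 9 pairs as blocks, 2 were called (Ankrd37 at an adjusted p of 0.0348 and Ak4 at 0.0450), a fit in which the culture arrays that chose the genes help set the spread. Of all 27363 probe sets, that fit called 448 higher and 960 lower in the tumours. Over the alternatives the adjusted p of Ankrd37 lay between 0.0348 and 0.534. Atp11b turned from -0.06 to 0.03 after cyclic loess. Of 60 alternative tumour differences of the 6 genes, 57 kept direction and side of the threshold. In most of the alternatives no probe set was called higher, so none of the 6 genes could be called higher there. The count also leaves out size, as without tumour 1 Ak4 fell from 1.13 to 0.58 and Fam162a from 0.68 to 0.37. The culture differences, which have no test, moved by less than the spread of replicates in 74 of 78 alternatives at 6 h and 76 of 78 at 16 h. The median over all probe sets in the tumours was 0.10, and -0.00131 after cyclic loess, so a tumour difference is read against that shift. Of the family and neighbour genes, 0 were called in the tumours, 1 with a trended and robust variance (Bnip3), 11 with all 18 arrays and 9 pairs, and 0 to 2 when a tumour was left out (Bnip3 and Vdac3 without tumour 1). Over all 27363 probe sets, 3 were called higher and 19 lower with the trended and robust variance, and 154 and 409 without tumour 1. At 6 h 5 were called, 0 with all 18 arrays in 6 groups, and 3 to 6 with a culture left out. At 16 h 7 were called, and 2 with all 18 arrays in 6 groups. The fit with the culture number as a replicate block lost the call of P4ha2 at 6 h (adjusted p 0.0594) and changed no other call among these genes. The causes of these changes were not tested.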
